A study of Saccharomyces cerevisiae with 9 samples.

Results

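The segment described here is the 3′-terminal part of 25S, the large RNA of the ribosome's large subunit in budding yeast (Saccharomyces cerevisiae). It holds 1132 of the 3396 nucleotides of 25S (nucleotides 2265 to 3396), which are positions 5516 to 6647 counted from the 5′ end of the 35S rRNA gene. The gene has 6858 positions in all, of which 5354 become mature rRNA (18S, 5.8S and 25S) and 2264 are the rest of 25S. The positions were chosen by their coordinates alone and every one of them was kept. In genome build R64 the segment is chrXII:460923-462054 on the minus strand. The annotation places it in RDN25-2 (chrXII:460923-464318), as mature rRNA at the 3′ end of that gene, inside the precursor unit RDN37-2 (chrXII:460712-467569).

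Its occupancy by RNA polymerase I (Pol I) was measured by NET-seq, short for native elongating transcript sequencing. Pol I was immunoprecipitated from frozen, cold-lysed yeast, and a DNA linker with a unique molecular identifier was ligated to the 3′ ends of the RNA that came with it. Each read then marks the last nucleotide of an RNA. There were 9 libraries in 3 groups of 3: wild-type yeast (WT, the control), rpa34△ yeast, which lacks the gene of the Pol I subunit Rpa34, and rpa49△ yeast, which lacks that of Rpa49. All groups were labelled untreated and were grown alike, and the labels do not tell whether libraries of one strain stem from different cultures. P-values therefore measure only the spread between these libraries, which may be technical. Levels of the RPA34 and RPA49 transcripts were not analysed here, so the labels of the deletion strains had no check of that kind.

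Pol I makes the 35S precursor, whose spacers are cut away and degraded while 18S, 5.8S and 25S are folded into ribosomes. The subunits Rpa34 and Rpa49 bind each other and sit as a pair on the outside of the enzyme, where they resemble TFIIF, a general factor of Pol II. The 3′-terminal part of 25S holds the peptidyl transferase centre, where peptide bonds are made, and the sarcin-ricin loop, which translation factors contact on the ribosome. Pol I transcribes it last among the mature rRNAs, shortly before the precursor is cut in the 3′ spacer. In NET-seq a position with many RNA 3′ ends is one where the polymerase is often found, but the 3′ end of mature rRNA carried along with the enzyme is counted in the same way, and the tables do not separate them.

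The WT libraries held 4448067 to 5353045 reads over the gene, the rpa34△ libraries 2654736 to 3575356 and the rpa49△ libraries 1242139 to 1568118. In the segment the median position had 623.5 to 703.5 reads in WT, 395.0 to 533.0 in rpa34△ and 183.0 to 234.0 in rpa49△. A level is a count per 1000000 reads that the same library had on the whole gene (RPM), so it is a share and not an amount. The median coefficient of variation of a position between libraries was 7.33% in WT, 6.30% in rpa34△ and 10.9% in rpa49△, so the shallowest group was also the most variable. Profiles correlated with Pearson's r of 0.980 to 0.989 between WT libraries, 0.984 to 0.992 between rpa34△ libraries and 0.966 to 0.976 between rpa49△ libraries, across 1129 positions that are not independent replicates. Between strains r was 0.941 to 0.961 for WT with rpa34△, 0.899 to 0.918 for WT with rpa49△ and 0.944 to 0.960 for rpa34△ with rpa49△. The deepest WT library was also the one with the lowest share of its reads in the segment.

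The following stretches carry the results. Each is written as RNA, 5′ to 3′, read from the deposited tables, and comes from the minus strand of build R64. The capital letter marks the RNA 3′ end that was counted, with 25 nt before it and 10 nt after it. Positions 6399 and 6383 had the largest rises in rpa34△, and position 6399 had the highest mean of the segment in both deletions, though in rpa49△ it was the highest position of replicate 2 alone.
Position 6399 (chrXII:461161-461196): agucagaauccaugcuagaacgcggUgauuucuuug
Position 6383 (chrXII:461177-461212): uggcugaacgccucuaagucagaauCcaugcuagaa
Position 6646 was the highest in WT and the last listed above 0, and its window runs into the 3′ spacer.
Position 6646 (chrXII:460914-460949): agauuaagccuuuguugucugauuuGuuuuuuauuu
Positions 6543 and 5860 are high in WT and fell in both deletions, whereas 5623 rose in both, and all 3 are an A that follows a run of G.
Position 6543 (chrXII:461017-461052): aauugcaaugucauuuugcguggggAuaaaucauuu
Position 5860 (chrXII:461700-461735): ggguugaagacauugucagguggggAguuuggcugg
Position 5623 (chrXII:461937-461972): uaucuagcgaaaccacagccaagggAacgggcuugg
Positions 6593 and 6102 had the largest falls in rpa49△.
Position 6593 (chrXII:460967-461002): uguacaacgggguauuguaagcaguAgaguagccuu
Position 6102 (chrXII:461458-461493): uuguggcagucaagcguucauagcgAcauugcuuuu
Positions 6602 and 5994 moved in opposite directions in the 2 deletions.
Position 6602 (chrXII:460958-460993): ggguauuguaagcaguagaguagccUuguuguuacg
Position 5994 (chrXII:461566-461601): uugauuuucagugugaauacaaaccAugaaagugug
For the landmarks the capitals mark the conserved stretch and 25 nt are given on each side.
Sarcin-ricin loop (chrXII:461263-461321): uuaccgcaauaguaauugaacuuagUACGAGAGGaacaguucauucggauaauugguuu
Peptidyl transferase centre stretch (chrXII:461415-461473): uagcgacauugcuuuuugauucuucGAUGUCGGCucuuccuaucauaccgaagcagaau

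The segment held a larger share of all RNA 3′ ends in both deletions than in WT. It took 19.4%, 19.6% and 18.8% of the reads of the gene in the 3 WT libraries. In rpa34△ it took 21.7%, 21.2% and 21.2%, and in rpa49△ 21.4% to 22.02%. Every deletion library lay above every WT library, while the 2 deletions overlapped with each other. The means were 19.3% ± 0.408 in WT, 21.3% ± 0.283 in rpa34△ and 21.7% ± 0.288 in rpa49△ (SD, n = 3). With 3 libraries against 3 a two-sided exact permutation test has 10 possible splits and cannot go below p = 0.1, which both deletions reached against WT (0.158 for rpa34△ and 0.146 for rpa49△ after Benjamini-Hochberg adjustment over 19 measures). The spacers held a smaller share in the deletions, 5.51% to 6.37% of reads in rpa34△ and 2.35% to 2.79% in rpa49△ against 8.91% to 10.7% in WT, and the part of this in the larger share of the segment was not tested beyond the scaling that follows.

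Scaled on mature rRNA reads alone, which leaves the spacers out, the difference was smaller but the groups stayed apart. The segment held 21.3%, 21.5% and 21.0% of mature rRNA reads in WT, 22.9%, 22.6% and 22.4% in rpa34△ and 22.3%, 22.6% and 21.96% in rpa49△. Both deletions were again above WT in every library (exact permutation p = 0.1, adjusted 0.158 and 0.146), with differences of 1.37 and 1.01 percentage points against 2.09 and 2.47 on the whole-gene scale. Against the rest of 25S, the ratio of reads was 0.527 ± 0.00524 in WT, 0.569 ± 0.00916 in rpa34△ and 0.558 ± 0.0111 in rpa49△ (n = 3), and no deletion library overlapped with WT (exact permutation p = 0.1, adjusted 0.158 and 0.146). The log2 ratio of the rpa49△ share over the rpa34△ share was 0.0255 on the whole gene and -0.0228 on mature rRNA, and the libraries of the 2 deletions overlapped on both scales (exact permutation p = 0.2, adjusted 0.38). Position 6399 alone carried part of the difference. Without it the share of whole-gene reads was 20.9% ± 0.187 in rpa34△, 21.4% ± 0.202 in rpa49△ and 19.2% ± 0.407 in WT. Both deletions were still above WT without overlap, and they now also stood apart from each other (exact permutation p = 0.1). On mature rRNA the deletions did not separate (exact permutation p = 0.3). Their ratio to the rest of 25S went the other way, with 0.549 ± 0.00288 in rpa49△ and 0.558 ± 0.00644 in rpa34△ (exact permutation p = 0.1).

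**Figure D1:**
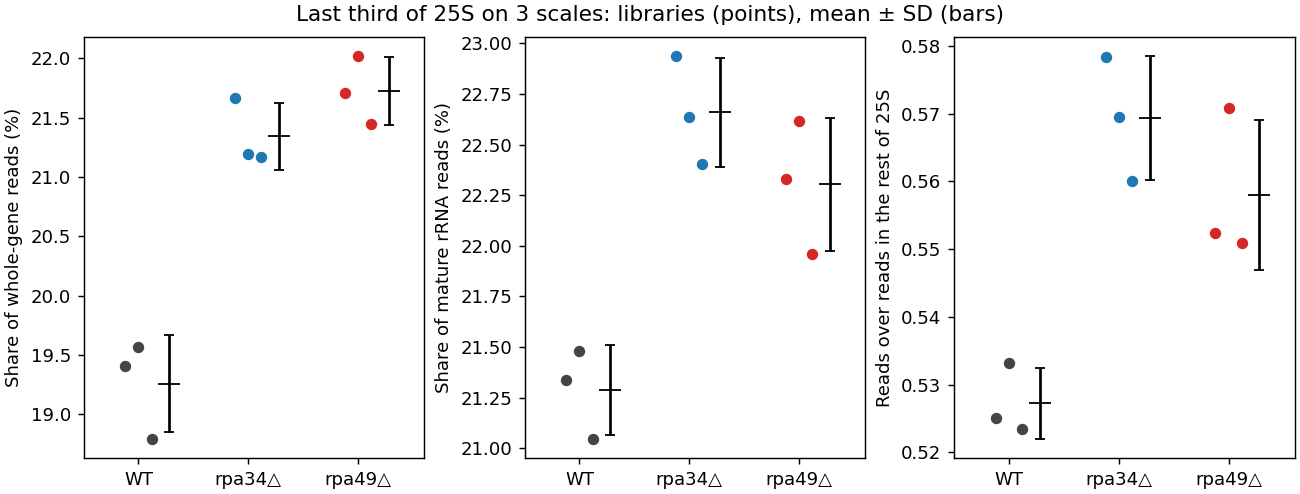
Share of whole-gene reads, share of mature rRNA reads and ratio to reads in the rest of 25S for the 3′-terminal segment of 25S, on axes that do not start at 0. Each point is a library and the bars are the mean ± SD of 3 libraries. On all 3 scales every rpa34△ and rpa49△ library lies above every WT library, and the 2 deletions overlap.

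In WT the RNA 3′ ends were spread over the whole segment, with a mean of 170 RPM and a median of 136 RPM per position. Position 6646, which adjoins the annotated 3′ end of 25S, was the highest, with 2063, 2504 and 2394 RPM in the 3 libraries, or 1.20% of the segment's reads. Position 6647, the last of 25S, was listed at 0 in every library. After 6646 came 6628 (1448 ± 313 RPM), 6645 (1437 ± 102), 6318 (1198 ± 204), 6543 (1018 ± 12.7), 5860 (993 ± 8.54), 6434 (933 ± 132), 6068 (867 ± 53.1), 6319 (735 ± 121) and 5941 (718 ± 30.0; SD, n = 3). The positions 6628, 6645 and 6646 lie in the last 20 nt of 25S, and 6318 and 6319 are neighbours. Relative to their means, 6628 and 6318 varied most among these 10 positions between WT libraries, with 1090 RPM in replicate 1 against 1665 and 1590 in the others at 6628, so neighbours in this order often do not differ beyond their spread.

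The highest positions shared features of sequence that played no part in their choice. Of the 50 highest WT positions 29 had G as the base before the RNA 3′ end, which 26.3% of the segment's positions have. Of the same 50, 22 ended at A (25.9% of positions), 21 had A as the next base (25.9%) and 3 ended at C (20.1%). Positions that follow a G averaged 217 ± 5.20 RPM in WT, against 151 ± 3.56 after A, 137 ± 2.53 after C and 167 ± 4.85 after U (SD, n = 3). The same order of G first and C last held in rpa34△ (241 ± 6.09 RPM after G and 149 ± 1.51 after C) and in rpa49△ (234 ± 11.1 and 156 ± 2.90). Of the 50 highest positions, WT shared 35 with rpa34△ and 34 with rpa49△, the deletions shared 42 with each other, and 32 were common to all 3 strains.

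**Figure D2:**
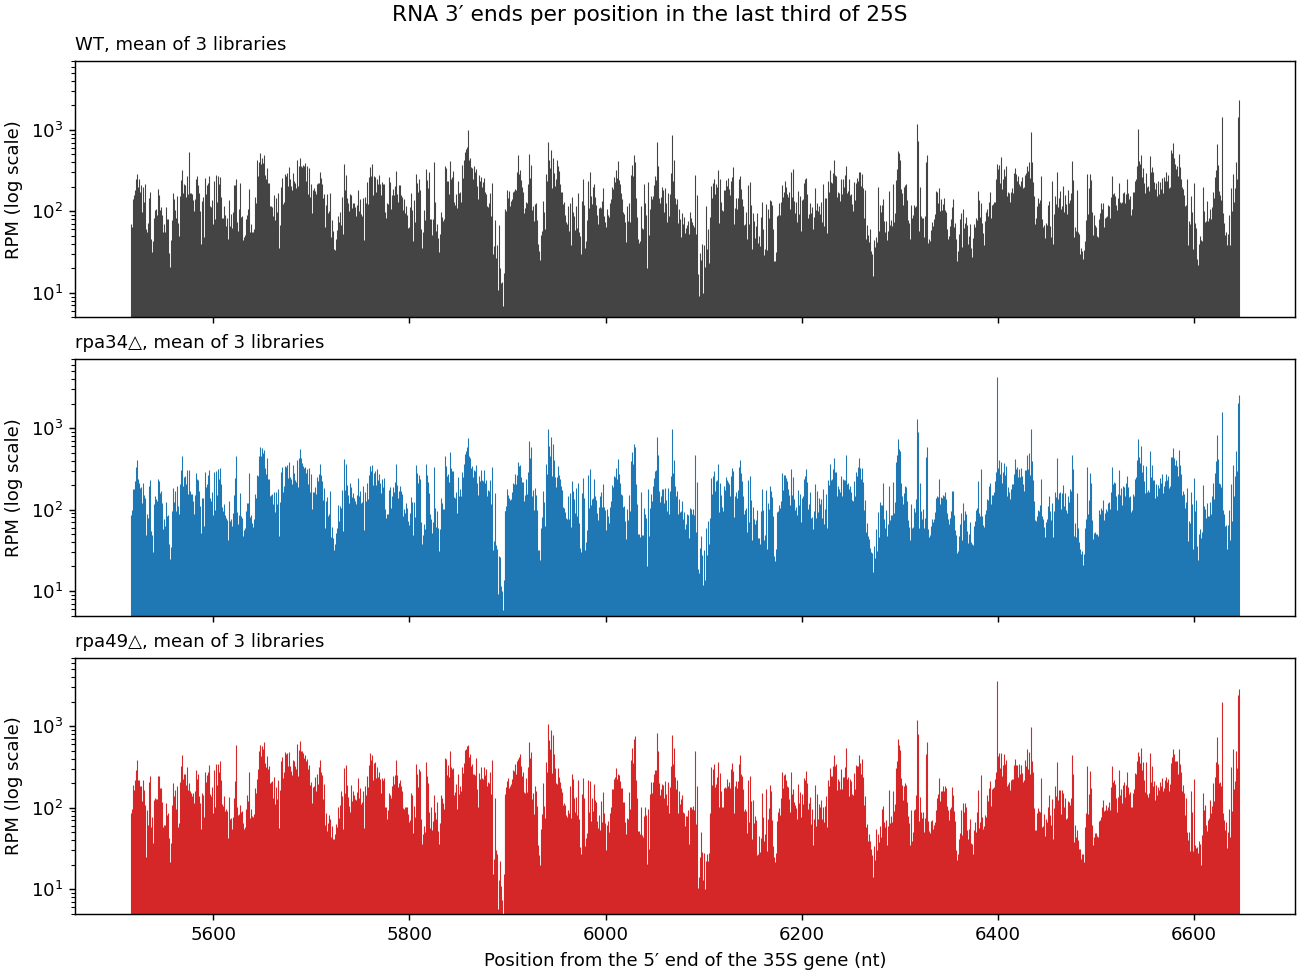
Mean RPM of each position (log axis) along the 3′-terminal segment of 25S in WT, rpa34△ and rpa49△, 3 libraries each, with the position counted from the 5′ end of the 35S gene. The largest WT value is 2320 RPM at position 6646; in rpa34△ and rpa49△ the highest mean is at 6399, 4265 and 3642 RPM, the latter through replicate 2 of rpa49△ (7637 RPM, against 1149 and 2141).

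Position 6399, a U at nucleotide 3148 of 25S, had the largest rise of the segment in both deletions. It had 342, 433 and 375 RPM in WT, where it ranked 93, 42 and 63 in the segment. In rpa34△ it had 5390, 4042 and 3364 RPM and ranked 1 in all 3 libraries. In rpa49△ it had 1149, 7637 and 2141 RPM and ranked 4, 1 and 3. All deletion libraries were above all WT libraries, with rpa49△ replicate 2 far above the other rpa49△ libraries. The log2 change was 3.42 in rpa34△ (SE 0.154, limma adjusted p = 1.94e-09) and 2.77 in rpa49△ (SE 0.394, adjusted p = 7.62e-06). Without rpa49△ replicate 2 the latter was 2.01 (limma adjusted p = 2.94e-07). Log2 changes throughout are on log2(RPM + 10), which understates the change of low positions. The 2 deletions did not separate from each other there (limma log2 change -0.65, SE 0.457, adjusted p = 0.319), nor under 17 of 18 alternatives. The exception left out rpa49△ replicate 2 (limma log2 change -1.41, adjusted p = 0.00241). That library is the only one of rpa49△ above the rpa34△ libraries, so leaving it out brings the separation about and is no support for it.

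The rise at 6399 was much larger than that of its neighbours. The next position, 6400, had 330 ± 20.3 RPM in WT, 319 ± 25.9 in rpa34△ and 429 ± 14.4 in rpa49△, with log2 changes of -0.05 (limma adjusted p = 0.693) and 0.37 (adjusted p = 0.00470). The position before, 6398, had 248 ± 15.4, 293 ± 23.0 and 276 ± 22.2 RPM, with log2 changes of 0.23 (limma adjusted p = 0.0389) and 0.15 (adjusted p = 0.235). On the whole-gene scale positions 6394 to 6396 rose in both deletions, by 0.25 to 0.34 in rpa34△ and by 0.41 to 0.47 in rpa49△ on the log2 scale (limma adjusted p between 0.00209 and 0.0377). Position 6397, between these and 6398, rose from 129 ± 7.84 RPM to 223 ± 23.7 in rpa34△ and 224 ± 68.6 in rpa49△ (log2 change 0.75 and 0.72, limma adjusted p = 2.53e-05 and 0.000467). The single position 6399 held 0.199% ± 0.0225 of the segment's reads in WT, 1.99% ± 0.455 in rpa34△ and 1.67% ± 1.58 in rpa49△. A second, smaller rise lay at 6383, a C whose window overlaps that of 6399: it had 120, 128 and 135 RPM in WT, 338, 321 and 282 in rpa34△ and 174, 349 and 241 in rpa49△ without overlap with WT. Its log2 change was 1.23 (SE 0.0878, limma adjusted p = 1.36e-07) in rpa34△ and 0.89 (SE 0.167, adjusted p = 0.000176) in rpa49△. At both positions replicate 2 was the highest and replicate 1 the lowest of the rpa49△ libraries.

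Of the 1132 positions, 1129 passed the minimum mean of 10 RPM in rpa34△ against WT and 427 passed the threshold (limma, adjusted p under 0.05 over all positions of the gene), 322 higher and 105 lower. Over the whole gene 43.2% of tested positions were called, 19.8% higher and 23.4% lower. In the segment these shares were 37.8%, 28.5% and 9.30%, and in the rest of 25S 34.7%, 19.8% and 14.9%. Most changes were small, with a median log2 change of 0.36 among the risen and -0.36 among the fallen positions. By 1 or more, 2 positions rose and 2 fell, a size not counted over the whole gene. The median over all tested positions of the segment was 0.11, against 0.05 in the rest of 25S and 0.01 over the gene. It was 0.06 in the segment on the mature rRNA scale. On the mature rRNA scale 369 of 1130 tested positions were called, 235 higher and 134 lower, where 34.4% of all tested positions were called, 15.9% higher and 18.5% lower. Scaled on the segment's own reads, which sets its total equal in every library, falls outnumbered rises, with 136 higher and 212 lower. Without rpa34△ replicate 1, 258 positions were called in place of 427.

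Besides 6399 and 6383, the largest rises in rpa34△ were at 5887, 6602, 5623 and 6077. Position 5623, an A after GGG, had 249, 244 and 250 RPM in WT, 464, 458 and 452 in rpa34△ and 606, 596 and 547 in rpa49△. The 3 strains did not overlap, and rpa49△ was the highest. Its log2 change was 0.86 (SE 0.0724, limma adjusted p = 6.72e-07) in rpa34△ and 1.20 (SE 0.102, adjusted p = 7.16e-09) in rpa49△, and 0.34 between the deletions (adjusted p = 0.00982). Position 6077 rose in the same order, from 48.1 ± 4.99 RPM in WT to 94.8 ± 12.4 and 127 ± 8.77 (log2 change 0.85 and 1.24, limma adjusted p = 6.80e-05 and 1.13e-07). Position 5887 rose from 78.2 ± 23.1 RPM to 159 ± 21.2 in rpa34△ and 132 ± 3.38 in rpa49△ (log2 change 0.96 and 0.72, limma adjusted p = 0.000336 and 0.000688).

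The largest falls in rpa34△ were at 5891, 6278, 6039, 6455, 6102 and 5820. Position 5891, 4 nt after the risen 5887, had 63.8, 66.3 and 71.2 RPM in WT, 24.5, 32.7 and 24.1 in rpa34△ and 7.76, 19.8 and 11.3 in rpa49△. The strains did not overlap and the log2 change was -1.06 (SE 0.117, limma adjusted p = 9.08e-06) in rpa34△ and -1.78 (SE 0.170, adjusted p = 4.07e-08) in rpa49△. Position 6039 fell from 192, 224 and 234 RPM in WT to 97.9, 114 and 103 in rpa34△ and 75.0, 77.8 and 86.1 in rpa49△, with log2 changes of -0.98 and -1.34 (limma adjusted p = 2.34e-06 and 1.14e-08). Position 5820 fell from 303 ± 37.4 RPM to 160 ± 17.3 and 89.0 ± 10.7 (log2 change -0.88 and -1.66, limma adjusted p = 1.43e-05 and 7.76e-10). Position 6455 fell by a like amount in both, from 235 ± 18.8 RPM to 119 ± 17.1 and 128 ± 2.18 (log2 change -0.93 and -0.83, limma adjusted p = 1.04e-05 and 2.45e-06), and the deletions did not separate there (adjusted p = 0.556).

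In rpa49△ against WT 531 of 1129 tested positions were called, 350 higher and 181 lower. Over the whole gene 57.6% were called, 27.1% higher and 30.5% lower, against 47.0%, 31.0% and 16.0% in the segment and 49.7%, 30.8% and 18.9% in the rest of 25S. On the mature rRNA scale 445 of 1129 were called and the rises no longer outnumbered the falls, with 220 higher and 225 lower, where 45.4% of all tested positions were called, 21.5% higher and 23.9% lower. Scaled on the segment's own reads 165 were higher and 279 lower. The falls in the segment went deeper than in rpa34△: 24 positions fell and 8 rose by 1 or more on the log2 scale. Over the whole gene changes of that size were not counted. The median over all tested positions of the segment was 0.13, against 0.09 in the rest of 25S and 0.01 over the gene. It was 0.03 in the segment on the mature rRNA scale. Of the 1129 positions tested in both deletions, 225 were called higher in both, 82 lower in both and 486 in neither, and 8 were called in opposite directions. Such shared and opposite calls were not counted over the whole gene, so they do not set the segment apart from it. These counts share the WT libraries, so the 2 comparisons are not independent.

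Position 6593, an A at nucleotide 3342, had the largest fall in rpa49△. It had 247, 243 and 263 RPM in WT, 183, 199 and 176 in rpa34△ and 44.6, 49.7 and 58.8 in rpa49△. The strains did not overlap, and the WT mean was 4.92 times the rpa49△ mean (limma log2 change -2.10, SE 0.121, adjusted p = 2.54e-11), against -0.41 in rpa34△ (SE 0.0798, adjusted p = 0.00102). Position 6102 had 107, 111 and 130 RPM in WT, 61.8, 64.6 and 49.6 in rpa34△ and 20.7, 15.9 and 30.6 in rpa49△, again without overlap. Its log2 change was -0.88 (SE 0.114, limma adjusted p = 3.97e-05) in rpa34△ and -1.98 (SE 0.160, adjusted p = 3.45e-09) in rpa49△. Position 6481 fell in rpa49△ from 184 ± 11.3 RPM in WT to 53.0 ± 5.01 (log2 change -1.63, limma adjusted p = 1.05e-09), whereas rpa34△ had 160 ± 7.67 RPM (log2 change -0.19, adjusted p = 0.0767). Among the rises past 6399, 6077 and 5623, position 5730 went from 67.3 ± 3.84 RPM in WT to 104 ± 5.08 in rpa34△ and 160 ± 9.17 in rpa49△ (log2 change 0.56 and 1.14, limma adjusted p = 0.000405 and 1.14e-07). Positions 5668 and 5967 rose in rpa49△ by 1.14 and 1.12 on the log2 scale (limma adjusted p = 3.47e-06 and 1.29e-05) and in rpa34△ by 0.78 and 0.74 (adjusted p = 8.62e-05 and 0.000496).

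**Figure D3:**
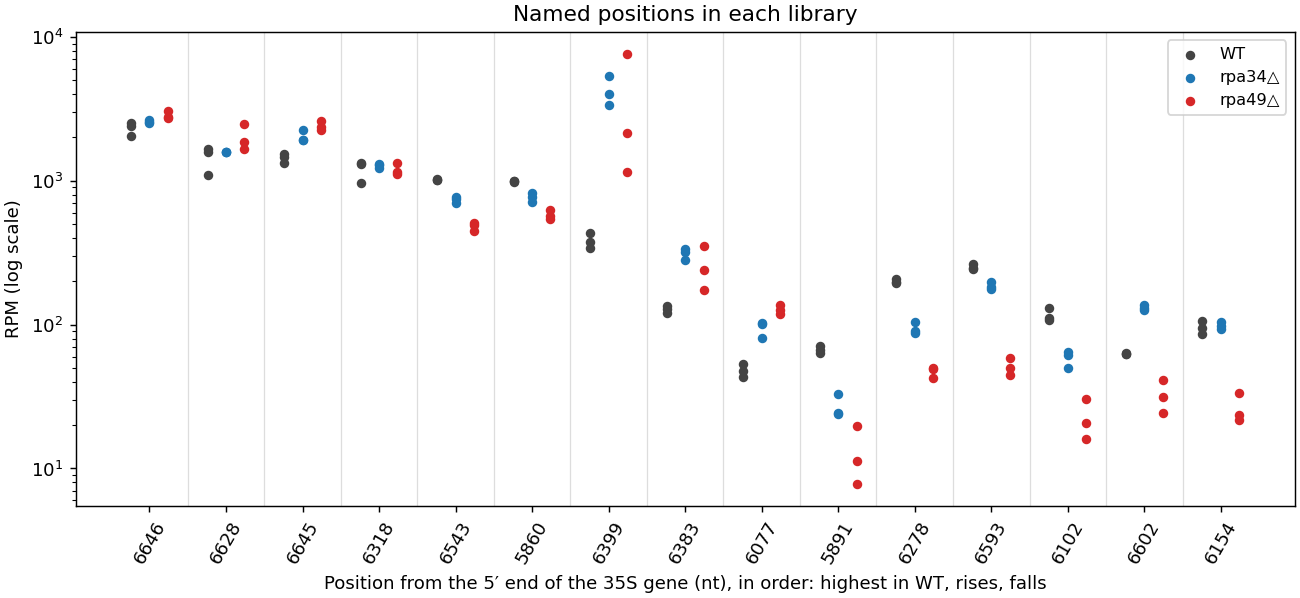
RPM (log axis) in each of the 9 libraries at 15 named positions, in the order of the highest in WT, the rises and the falls, with the position counted from the 5′ end of the 35S gene. At 6399 the 3 WT libraries lie between 342 and 433 RPM and the deletion libraries between 1149 and 7637; at 6593 rpa49△ lies between 44.6 and 58.8 RPM, below both other strains.

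The deletions were compared directly, with no WT library in the fit. Of 1128 tested positions 202 were called in rpa49△ against rpa34△, 99 higher and 103 lower, where 30.4% of all tested positions of the gene were called, 10.9% higher and 19.5% lower. On the mature rRNA scale 166 were called, 50 higher and 116 lower, against 19.1% of all tested positions, 7.63% higher and 11.5% lower. Scaled on the segment's own reads 71 were higher and 117 lower. Without rpa34△ replicate 1 the count of 202 fell to 116. Inside the segment the falls were the larger changes: 16 positions were lower in rpa49△ by 1 or more on the log2 scale and 0 were higher by as much. Changes of that size were not counted over the whole gene, where falls were also called more often than rises. The largest of these falls were at 6602, 6593, 6154, 6481, 6104 and 5994. Position 6154 had 98.6 ± 5.26 RPM in rpa34△ and 95.5 ± 10.2 in WT but 26.3 ± 6.39 in rpa49△ (log2 change -1.59 between the deletions, SE 0.142, limma adjusted p = 4.77e-07), and position 6104 had 71.6 ± 7.76, 59.9 ± 6.41 and 22.1 ± 5.12 RPM (log2 change -1.35, SE 0.147, adjusted p = 4.19e-06). The largest rises were smaller: 5899, 5901, 6638, 5730, 5538 and 5685 were higher in rpa49△ than in rpa34△ by 0.55 to 0.64 on the log2 scale (limma adjusted p between 0.000362 and 0.00597).

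Of the 8 positions called in both deletions with opposite signs, all 8 were also called between the deletions. Choosing positions by opposite calls makes this likely, so it is not separate support. Opposite calls were not counted over the whole gene. Of the 8 positions, 2 are named by the rule on the largest changes. Position 6602, a U, had 62.9, 63.8 and 62.6 RPM in WT, 137, 126 and 131 in rpa34△ and 41.4, 24.2 and 31.4 in rpa49△. It rose by 0.95 in rpa34△ (SE 0.0902, limma adjusted p = 2.05e-06) and fell by 0.81 in rpa49△ (SE 0.153, adjusted p = 0.000185), with a log2 change of -1.76 between the deletions (SE 0.146, adjusted p = 2.29e-07). Position 5994, an A, had 120, 111 and 105 RPM in WT, 149, 149 and 144 in rpa34△ and 56.2, 51.7 and 50.7 in rpa49△. Its log2 change was 0.37 in rpa34△ (SE 0.0859, limma adjusted p = 0.00374), -0.95 in rpa49△ (SE 0.125, adjusted p = 2.72e-06) and -1.32 between them (SE 0.109, adjusted p = 2.13e-07). At both positions no library of a strain overlapped with another strain.

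The sarcin-ricin loop, a conserved hairpin that translation factors contact and that ricin and sarcin attack, was found as UACGAGAGG on the RNA strand, once in the gene. It spans positions 6274 to 6282, nucleotides 3023 to 3031 of 25S. Its position 6278 is the adenine that ricin removes, and it had 196, 194 and 209 RPM in WT, 88.1, 104 and 90.3 in rpa34△ and 42.7, 49.7 and 49.1 in rpa49△. The strains did not overlap, with WT highest and rpa49△ lowest. The log2 change was -1.01 in rpa34△ (SE 0.0887, limma adjusted p = 9.80e-07), -1.88 in rpa49△ (SE 0.119, adjusted p = 1.04e-10) and -0.86 between the deletions (SE 0.123, adjusted p = 6.15e-05). It was among the 6 largest falls of the segment in both deletions.

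Other nucleotides of the loop behaved differently from it. Positions 6280 and 6281 had 118 ± 5.81 and 97.1 ± 4.73 RPM in WT, 125 ± 7.38 and 115 ± 1.43 in rpa34△ and 60.5 ± 8.21 and 43.3 ± 3.60 in rpa49△. They fell in rpa49△ (log2 change -0.87 and -1.01, limma adjusted p = 1.31e-05 and 2.02e-06) and between the deletions (-0.94 and -1.23, adjusted p = 2.52e-05 and 9.52e-07), while in rpa34△ the changes of 0.07 and 0.22 did not pass (adjusted p = 0.517 and 0.0536). Of the 9 nucleotides of the stretch 3 fell in rpa34△ and 6 in rpa49△ (5 and 8 on the mature rRNA scale), 3 were lower in rpa49△ than in rpa34△, and 0 rose. The falls of 6275 and 6277 in rpa34△ were near the threshold (limma adjusted p = 0.0429 and 0.0355) and were lost under 6 and 5 of 17 alternatives. The 59-nt window around it did not fall with them: it held 8986 ± 401 RPM in WT, 10011 ± 162 in rpa34△ and 9921 ± 487 in rpa49△. Of the 59 tested positions of that window 13 rose and 6 fell in rpa34△, and 15 rose and 10 fell in rpa49△. Over the whole gene 19.8% rose and 23.4% fell in rpa34△, and 27.1% and 30.5% in rpa49△. In the segment these shares were 28.5% and 9.30% in rpa34△, and 31.0% and 16.0% in rpa49△.

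The stretch GAUGUCGGC of the peptidyl transferase centre also matched once, at positions 6122 to 6130 (nucleotides 2871 to 2879). Its nucleotides ranged from 159 to 349 RPM in WT, and most changes were small. In rpa34△ 1 of the 9 rose and 1 fell, and in rpa49△ 2 rose and 3 fell. With mature rRNA reads as the scale, 0 rose in either deletion (limma adjusted p = 0.116 for 6129 in rpa34△, 0.145 for 6128 and 0.136 for 6129 in rpa49△), while 2 fell in rpa34△ and 3 in rpa49△. The A at 6123 had 240 ± 11.5 RPM in WT, 249 ± 23.6 in rpa34△ and 177 ± 13.1 in rpa49△, with log2 changes in rpa49△ of -0.42 against WT (SE 0.106, limma adjusted p = 0.00221) and -0.47 against rpa34△ (SE 0.101, adjusted p = 0.00220). The G at 6125 fell in rpa49△ from 243, 261 and 265 RPM to 214, 183 and 159 (log2 change -0.45, limma adjusted p = 0.00254). The 59-nt window around the stretch summed to 8086 ± 281 RPM in WT, 9019 ± 428 in rpa34△ and 9270 ± 202 in rpa49△ on the whole-gene scale. Of its 59 tested positions 17 rose and 5 fell in rpa34△, and 23 rose and 9 fell in rpa49△. Between the deletions 5 were higher and 5 lower in rpa49△. Over the gene the shares higher and lower were 19.8% and 23.4%, 27.1% and 30.5%, and 10.9% and 19.5% in the same order. In the segment they were 28.5% and 9.30%, 31.0% and 16.0%, and 8.78% and 9.13%. That window also holds 6102, 6104 and 6154, which were described above and fell in rpa49△.

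On the whole-gene scale some changes ran together over stretches of neighbouring positions. The longest run of adjacent called positions was 36 nt, from 5650 to 5685 (chrXII:461885-461920), where every position rose in rpa49△ by 0.30 to 1.14 on the log2 scale. The sequence under it is given to show its extent, and holds no capitals because every position counts.
Run from 5650 to 5685: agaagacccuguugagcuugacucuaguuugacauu
Its summed level was 8099, 7858 and 7946 RPM in WT, 9653, 9805 and 8748 in rpa34△ and 13168, 11502 and 10397 in rpa49△. The 3 strains did not overlap, with WT lowest and rpa49△ highest. Within it, positions 5670 to 5678 were also higher in rpa49△ than in rpa34△ (3471 ± 460 against 2607 ± 135 RPM, each position by 0.30 to 0.49). In rpa49△ the next longest run was 6132 to 6142, 11 nt that rose from a sum of 1615 ± 148 RPM in WT to 2431 ± 61.5, with 2195 ± 107 in rpa34△. The longest runs in rpa34△ were 13 nt from 5916 to 5928 (2399 ± 178 RPM in WT, 3497 ± 166 in rpa34△ and 3371 ± 425 in rpa49△) and 11 nt from 5962 to 5972 (1077 ± 54.9, 1536 ± 75.2 and 1591 ± 236). Between the deletions the longest run was 10 nt from 5901 to 5910, at 1885 ± 57.3 RPM in rpa34△ and 2561 ± 197 in rpa49△, against 1736 ± 226 in WT. All 6 of these runs were rises. Runs were not sought on the mature rRNA scale or in the rest of the gene.

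In bins of 50 nt, 21 of which lie wholly inside the segment, 9 passed the threshold in rpa34△ against WT, 9 higher and 0 lower (limma, adjusted p under 0.05 over 138 bins). Over the whole gene 37% of bins were called, 15.9% higher and 21% lower. The bin 6351 to 6400, which holds 6399, rose most, from 4831 ± 117 RPM in WT to 9559 ± 1126 in rpa34△ and 8777 ± 3824 in rpa49△ (log2 change 0.98 and 0.78, SE 0.0759 and 0.200, limma adjusted p = 2.70e-06 and 0.00487). Position 6399 made up 38.7% to 49.8% of this bin in the rpa34△ libraries and 19.3% to 58.2% in the rpa49△ libraries, against 7.11% to 8.73% in WT. The rest of the bin held 4447 ± 88.6 RPM in WT, 5294 ± 175 in rpa34△ and 5135 ± 341 in rpa49△, and no deletion library overlapped with WT. The bin 5901 to 5950 rose without such a peak, from 10532 ± 548 RPM to 13120.5 ± 421 and 14679 ± 1559 (log2 change 0.32 and 0.47, limma adjusted p = 0.000616 and 0.000155). Bins 6051 to 6100 and 6251 to 6300 rose by 0.20 each in rpa34△ (limma adjusted p = 0.0130 and 0.0133). On the mature rRNA scale 4 of the 21 bins were called in rpa34△, where 18 of all 104 bins tested on that scale were called. Without rpa34△ replicate 1, 2 were called on the whole-gene scale, where 27 of 138 were over the gene. Bins 6051 to 6100 and 6251 to 6300 were among those lost (limma adjusted p = 0.0758 and 0.0641). Scaled on the segment's own reads 2 were higher and 4 lower, where 3 were higher and 63 lower over the gene. Without rpa49△ replicate 2 the log2 change of the bin 6351 to 6400 in rpa49△ was 0.44 (limma adjusted p = 5.97e-05), and without position 6399 it was 0.25 in rpa34△ and 0.20 in rpa49△ (limma adjusted p = 0.0101 and 0.0317).

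In rpa49△ against WT 11 of the 21 bins were called, 10 higher and 1 lower, where 62.3% of all bins were called, 30.4% higher and 31.9% lower. The bin 5651 to 5700, under the 36-nt run, rose from 12159.8 ± 141 RPM in WT to 17049.7 ± 2241 (limma log2 change 0.48, SE 0.0846, adjusted p = 0.000277), with 13654 ± 858 in rpa34△. The bin 6051 to 6100 rose by 0.29 (limma adjusted p = 0.000557). The only bin to fall was 6551 to 6600, which holds 6593, from 12750.4 ± 981 to 11163 ± 527 RPM (limma log2 change -0.19, SE 0.0681, adjusted p = 0.0283). That call was lost without WT replicate 1, without WT replicate 2 and without rpa49△ replicate 3 (limma adjusted p = 0.0876, 0.120 and 0.108). On the mature rRNA scale 7 bins were called, 4 higher and 3 lower, where 38 of all 104 bins were called, 13 higher and 25 lower. With the median bin set equal 6 were higher and 3 lower, where 30 were higher and 51 lower over the gene. Scaled on the segment's own reads 3 were higher and 6 lower, against 12 and 69 over the gene. Between the deletions 5 bins were called, 2 higher and 3 lower, where 38.4% of all bins were called, 10.1% higher and 28.3% lower. The rises were 5651 to 5700 (0.31, limma adjusted p = 0.0216) and 5751 to 5800 (0.16, adjusted p = 0.0177), and the falls 5951 to 6000 (-0.19, adjusted p = 0.0160), 6151 to 6200 (-0.18, adjusted p = 0.0193) and 6451 to 6500 (-0.16, adjusted p = 0.0317). On the mature rRNA scale neither rise passed (limma adjusted p = 0.0702 and 0.0981), while all 3 falls did, as part of 4 bins lower and 0 higher. Of all 104 bins tested on that scale 8 were higher and 15 lower. Without rpa34△ replicate 1, 1 bin was called, where 41 of 138 were over the gene, and none of the 3 falls passed (limma adjusted p = 0.0908, 0.111 and 0.173).

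**Figure D4:**
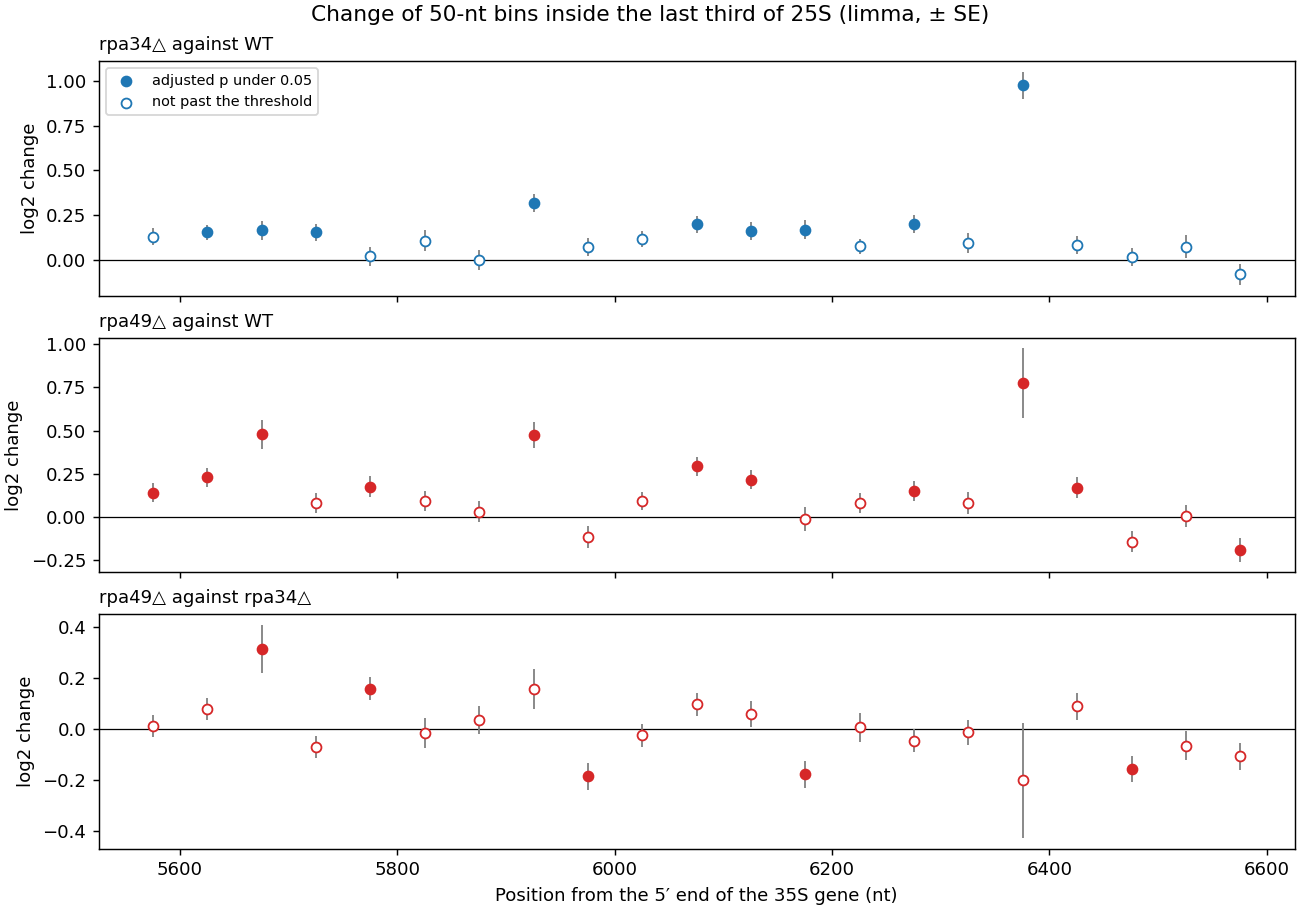
Log2 change of the summed RPM of each 50-nt bin inside the 3′-terminal segment of 25S (points, ± SE from limma) for rpa34△ against WT, rpa49△ against WT and rpa49△ against rpa34△, by the middle of the bin counted from the 5′ end of the 35S gene. Filled points pass an adjusted p of 0.05. The bin that holds 6399 stands out in both deletions, at 0.98 and 0.78, and the bin 6551 to 6600 is the only one past the threshold below 0 in rpa49△ against WT.

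Rises in the deletions were more frequent in the 5′ part of the segment than in its 3′ part on the whole-gene scale. In the 4 stretches of 283 nt that divide it, 127 of 283, 101 of 281, 69 of 283 and 53 of 282 tested positions rose in rpa49△, and 24, 46, 50 and 61 fell. In rpa34△ 98, 91, 75 and 58 rose and 22, 26, 24 and 33 fell. With mature rRNA reads as the scale rpa49△ had 75, 75, 42 and 28 rises and 29, 59, 62 and 75 falls, and rpa34△ 64, 75, 53 and 43 rises and 27, 35, 31 and 41 falls, so that the first stretch had as many rises as the second in rpa49△ and fewer than it in rpa34△. As a share of the segment's own reads, which no scaling of the gene touches, the stretch from 5516 to 5798 held 24.9%, 24.3% and 24.7% in WT, 24.3%, 24.9% and 24.3% in rpa34△ and 27.1%, 25.6% and 25.7% in rpa49△. Here rpa49△ was above both other strains in every library, and WT and rpa34△ overlapped (exact permutation p = 0.1 for rpa49△ against WT, adjusted 0.146, and 0.1 against rpa34△, adjusted 0.38; p = 0.5 for rpa34△ against WT). The read-weighted mean position was 6096 ± 3.29 in WT, 6097 ± 3.92 in rpa34△ and 6085 ± 3.29 in rpa49△, with the same exact permutation tests for rpa49△ and an exact permutation p of 0.9 for rpa34△ against WT.

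The profile was less even in the deletions. The Gini coefficient over the positions of the segment, which is 0 for a flat profile, was 0.383, 0.391 and 0.393 in WT, 0.410, 0.404 and 0.400 in rpa34△ and 0.423, 0.437 and 0.429 in rpa49△. The 3 strains did not overlap (exact permutation p = 0.1 for each comparison, adjusted 0.158, 0.146 and 0.38). Nor did their read depths, which were highest in WT, lower in rpa34△ and lowest in rpa49△. Without position 6399 the difference of rpa34△ from WT was 0.00505 in place of 0.0158 and the libraries overlapped (exact permutation p = 0.2), while that of rpa49△ was 0.0323. The highest 11 positions of a library, 1% of the segment, held 6.46% ± 0.477 of its reads in WT, 8.08% ± 0.357 in rpa34△ and 8.06% ± 1.32 in rpa49△, both without overlap with WT. Without 6399 these shares were 6.47% ± 0.479, 6.58% ± 0.146 and 6.87% ± 0.214, and the groups no longer stood apart (exact permutation p = 0.9 and 0.3).

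More RNA 3′ ends lay at U and fewer at G in both deletions than in WT. The share of the segment's reads that ended at U was 26.2%, 26.1% and 26.0% in WT, 28.4%, 28.1% and 28.3% in rpa34△ and 28.6%, 30.2% and 28.2% in rpa49△, and the share that ended at G was 25.8%, 25.5% and 25.3%, 23.6%, 23.7% and 23.3%, and 24.6%, 23.2% and 23.2% in the same order. For both bases no deletion library overlapped with WT (exact permutation p = 0.1, adjusted 0.158 for rpa34△ and 0.146 for rpa49△). Position 6399 is itself a U, and without it the share at U was 25.9% ± 0.120 in WT, 26.8% ± 0.305 in rpa34△ and 27.8% ± 0.375 in rpa49△, still with an exact permutation p of 0.1. The share that ended at A was 30.9% ± 0.295 in WT and 30.6% ± 0.146 in rpa34△, which overlapped (exact permutation p = 0.3), and 29.2% ± 0.328 in rpa49△, below every library of both other strains (p = 0.1, adjusted 0.146 against WT and 0.38 against rpa34△). Without 6399 the share at A was 31.0% ± 0.289 in WT, 31.3% ± 0.0813 in rpa34△ and 29.7% ± 0.539 in rpa49△. Then rpa34△ was higher than WT and rpa49△ lower (exact permutation p = 0.1 for each). The next base was A for 29.8% ± 0.268 of reads in WT, 30.8% ± 0.265 in rpa34△ and 31.5% ± 0.797 in rpa49△, and U for 27.8% ± 0.145, 26.7% ± 0.275 and 26.3% ± 0.417, both without overlap with WT (exact permutation p = 0.1).

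Among single positions, those that end at G rose least often and fell most often against WT, whereas U did not lead the rises. In rpa34△ 48 of 297 tested positions that end at G fell, against 26 of 293 at A, 14 of 227 at C and 17 of 312 at U, while 52, 99, 74 and 97 rose. In rpa49△ 71 positions at G, 59 at A, 20 at C and 31 at U fell, and 63, 86, 89 and 112 rose. Between the deletions the falls in rpa49△ were most frequent at A, with 50 of 292 tested, against 25 of 297 at G, 7 of 227 at C and 21 of 312 at U. All of the 6 largest falls in that comparison but 6602 and 6481 end at A. These classes differ in their mean level as well: positions ending at A averaged 203 ± 3.62 RPM in WT, at G 165 ± 4.65, at U 161 ± 4.07 and at C 147 ± 4.41 (SD, n = 3).

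**Figure D5:**
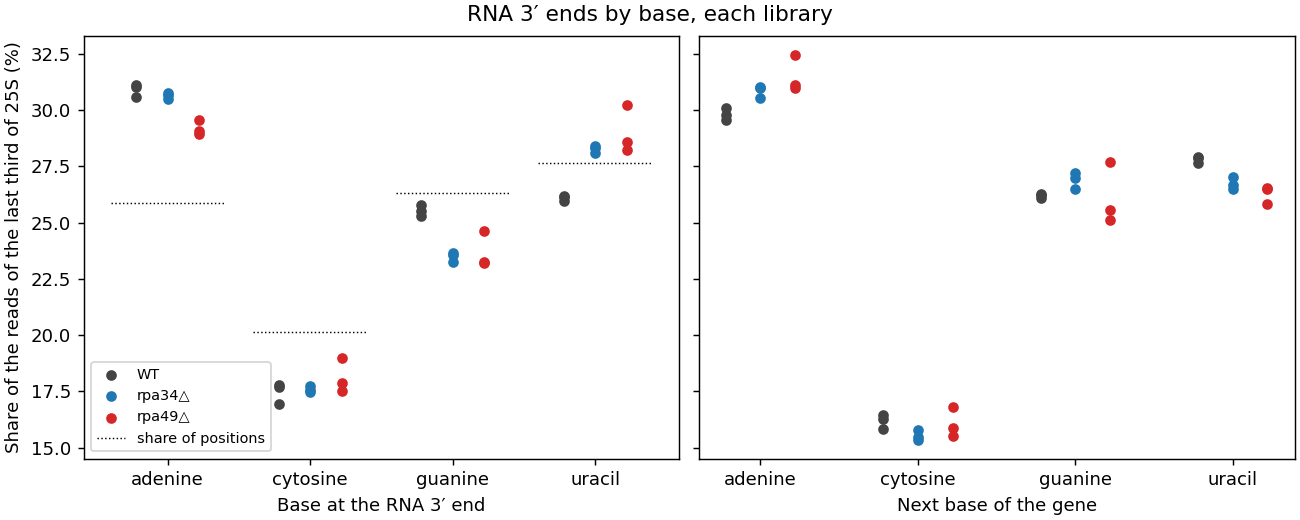
Share of the segment's reads by the base at the RNA 3′ end (left) and by the next base of the gene (right) in each of the 9 libraries, on an axis that does not start at 0, with dotted lines at the share of positions with that base. The share ending at uracil lies between 26.0% and 26.2% in WT and between 28.1% and 30.2% in the deletions.

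A smaller class was noticed after its values were seen and is given as a description with no test. The segment holds 7 positions where an A follows GGG (GGGA read on the RNA strand, with the count at the A). They averaged 592 ± 15.2 RPM in WT, 565 ± 30.1 in rpa34△ and 468 ± 21.1 in rpa49△, against 194 ± 4.02, 215 ± 1.79 and 210 ± 1.64 RPM for the other 286 positions that end at A (SD, n = 3). The median of the 7 was instead higher in the deletions, at 526 RPM in WT, 595 in rpa34△ and 582 in rpa49△. In WT 4 of the 7 were among the 50 highest positions. They did not move as a group. Position 6543 had 1005, 1017 and 1031 RPM in WT, 745, 768 and 704 in rpa34△ and 449, 509 and 496 in rpa49△, and the strains did not overlap (log2 change -0.46, -1.06 and, between the deletions, -0.60, limma adjusted p = 0.000988, 1.39e-07 and 0.000167). Position 5860 had 1002, 992 and 984 RPM, 771, 816 and 713, and 571, 629 and 546 in the same order (log2 change -0.37, -0.76 and -0.39, limma adjusted p = 0.00519, 1.20e-05 and 0.00740). Position 6191 fell from 329 ± 35.6 RPM to 249 ± 15.8 and 171 ± 5.62 (limma adjusted p = 0.00412 and 9.36e-07). Position 5719 fell in rpa49△ from 167 ± 5.35 to 72.5 ± 2.72 RPM (limma adjusted p = 1.18e-07), with 171 ± 15.8 in rpa34△. Against these, 5623 rose in both deletions as given above, and 5648 and 6068 passed in neither comparison with WT.

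Positions at the very 3′ end of 25S changed little or rose. Position 6646 had 2580, 2512 and 2663 RPM in rpa34△ and 3077, 2746 and 2783 in rpa49△. Every deletion library was above every WT library, but the change did not pass (log2 change 0.16 and 0.31, limma adjusted p = 0.353 and 0.0985). Its neighbour 6645 had 1325, 1525 and 1462 RPM in WT, 1934, 1932 and 2237 in rpa34△ and 2609, 2263 and 2353 in rpa49△, with no overlap between strains. There the log2 change was 0.50 in rpa34△ (SE 0.118, limma adjusted p = 0.00434) and 0.74 in rpa49△ (SE 0.141, adjusted p = 0.000200), and 0.24 between the deletions (adjusted p = 0.185). Position 6628 rose in rpa49△, to 2000 ± 424 RPM (log2 change 0.47, limma adjusted p = 0.0319), a call that was lost on the mature rRNA scale (adjusted p = 0.11). The last 10 nt held 2.44%, 2.93% and 2.91% of the segment's reads in WT, 2.91%, 2.92% and 3.28% in rpa34△ and 3.18% to 3.64% in rpa49△, so rpa49△ stood apart from WT (exact permutation p = 0.1, adjusted 0.146) and rpa34△ did not (p = 0.5). That contrast depended on position 6399. Without it the share was 2.77% ± 0.278 in WT, 3.10% ± 0.201 in rpa34△ and 3.46% ± 0.183 in rpa49△. Both deletions then reached an exact permutation p of 0.1 against WT.

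Some high positions did not pass the threshold in either deletion. Position 6318 had 963, 1299 and 1331 RPM in WT, 1317, 1287 and 1237 in rpa34△ and 1110, 1158 and 1326 in rpa49△, and its log2 changes of 0.11 and 0.01 did not pass (SE 0.126 and 0.143, limma adjusted p = 0.509 and 0.952). Position 6434 had 933 ± 132, 985 ± 47.1 and 980 ± 118 RPM (log2 change 0.09 and 0.07, limma adjusted p = 0.559 and 0.667), and 6319 had 735 ± 121, 893 ± 21.7 and 816 ± 71.5 (0.29 and 0.16, adjusted p = 0.0537 and 0.317), where every rpa34△ library lay above every WT library. With 3 libraries a group, changes of the size of these standard errors were not detectable. Position 5941 rose in both deletions, from 718 ± 30.0 RPM in WT to 988 ± 47.2 and 1072 ± 154 (log2 change 0.46 and 0.56, limma adjusted p = 0.00116 and 0.000903).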

How the data were processed

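The 9 NET-seq libraries and their groups were taken from the titles in the labels. The tools named per the submitters' processing notes are R 4.0.2, bedtools 2.28.0, STAR 2.7.1a, bcl2fastq 2.20.00, SAMtools 1.6 and cutadapt 3.4, with build R64. Not given in the sources used here are their settings and how repeated molecular identifiers and reads matching several rDNA copies were treated. The replicate columns the authors deposited are RPM per position, scaled to 1000000 up to position 6739. Their ratio and p-value columns were not used. All but 10 of 61722 values were whole multiples of 1 read (tolerance 0.01), and the recovered reads were rescaled to the whole gene or to mature rRNA.

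Sums over 50-nt bins, and positions whose mean reached 10 RPM, entered limma 3.58.1 as log2(RPM + 10) (R 4.3.3, lmFit and eBayes with trend) using the libraries of the 2 groups compared, with Benjamini-Hochberg adjustment over the whole gene at 0.05. The recovered reads were also tested by the quasi-likelihood method of edgeR 4.0.16. For 19 measures with 1 value per library, exact permutation tests were two-sided (scipy 1.17.1, pandas 2.3.3, numpy 2.4.6, matplotlib 3.10.9, Python 3.11.15). The labels do not tell whether equal replicate numbers pair libraries, and the main fits used no replicate block. Named positions are the 10 highest in WT, the 5 highest in each deletion, per comparison the 6 largest rises and 6 largest falls past the threshold without overlap between libraries and the 2 longest runs, the last position above 0 and the landmarks. The segment, lists and tests were chosen with earlier results of these data known. Reads are not independent molecules where identifiers were not collapsed.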

Additional observations from a re-analysis of the deposited data

Results flagged for a closer look

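Positions 6602 and 5994 moved in opposite directions in rpa34△ and rpa49△, and the deletions were also compared directly. Opposite changes against the same WT libraries make a call between the deletions likely, so that comparison gives the size of the difference and no separate support. Position 6602 differed by -1.76 on the log2 scale and position 5994 by -1.32 (limma adjusted p = 2.29e-07 and 2.13e-07). Neither call was lost under any of the 18 alternatives tried for that comparison. Groups of 3 libraries are too small to test for a library far from the others.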

How the results depend on the processing

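The 6 largest rises and 6 largest falls of each comparison kept their direction and call under all alternatives tried for it. At least 1 alternative ended the call of 6275, 6277, 6129 and 6130 in both deletions, of 5685, 6128 and 6628 in rpa49△, and of 5860, 6039, 6068 and 6077 between the deletions. The total counts of called positions stayed within 1.5 times of 427, 531 and 202 (rpa34△ and rpa49△ against WT, and rpa49△ against rpa34△) except where rpa34△ replicate 1 was left out. Leaving out each library in turn gave 258 to 408, 402 to 516 and 116 to 221 positions, and 2 to 8, 7 to 10 and 1 to 7 bins. Deviations from the group mean correlated at -0.18 to 0.25 between libraries of the same number and at -0.26 to 0.25 between others. With so few libraries this cannot decide whether replicate numbers pair them. With a replicate block 343, 488 and 217 positions were called, and 5 in place of 9 bins for rpa34△. With the block on the mature rRNA scale 303, 425 and 200 positions were called. edgeR called 426, 541 and 206. Scaled on the segment's own reads more calls were lower than higher, with 136 higher and 212 lower, 165 and 279, and 71 and 117 positions. Bins called in rpa34△ were 4 of 21 on the mature rRNA scale and 4 of 21 with the median bin set equal. Over all bins tested these were 18 of 104 and 42 of 138. In rpa49△ they were 7 of 21 on the mature rRNA scale, 21 of 44 in bins of 25 nt and 5 of 10 in bins of 100 nt. Over all bins tested these were 38 of 104, 175 of 275 and 41 of 69. Between the deletions 1 of 10 bins of 100 nt was called, against 27 of 69. The log2 ratio of the share of the segment was 0.148, 0.174 and 0.0255 on the whole gene, and 0.0900, 0.0672 and -0.0228 (reversed) on mature rRNA. Without 1 library it ran from 0.131 to 0.160, 0.157 to 0.186 and 0.0156 to 0.0366. Likewise the log2 ratio to the rest of 25S ran from 0.0994 to 0.123, 0.0653 to 0.0910 and -0.0457 to -0.0176, and the Gini difference from 0.0129 to 0.0182, 0.0368 to 0.0441 and 0.0210 to 0.0283. Leaving out position 6399, thinning all libraries to the shallowest, and the block on the mature rRNA scale were chosen after seeing the data. Without position 6399 the Gini difference of rpa34△ was 0.00505, and 11 in place of 5 measures reached an exact permutation p of 0.1 between the deletions. In that comparison 6399 is also the highest position, so leaving out the highest position is the same step and no second check. The mature rRNA scale removes the spacer reads by construction, and for the other changes the cause was not tested. Depth limits rpa49△ most, with 183.0 reads at the median position of its shallowest library.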
